A study of Homo sapiens with 8 samples.

Results

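The genes of the proteasome, the protease complex that degrades ubiquitin-tagged proteins, were compared between differentiated Caco-2 cells with and without L. plantarum MB452. Members were chosen by symbol and comprised 41 genes, those of the alpha ring (PSMA1 to PSMA7), the beta ring (PSMB1 to PSMB10), the base ATPases (PSMC1 to PSMC6), the other regulatory particle genes (PSMD1 to PSMD14) and the activators (PSME1 to PSME4). Of these, 38 were measured, by 58 of the 41731 array features that were tested, and they were set against all 17910 genes tested. PSMC5, PSMD7 and PSMD13 had no feature with their symbol in the platform annotation and were not analysed here. All 38 measured genes had a value on every slide, so no filter on low values removed any of them.

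Caco-2 is a cell line from a human colorectal adenocarcinoma, which differentiates into a polarised epithelium. Cells were grown for 18 days and then received control medium or L. plantarum MB452, a Lactobacillus strain, at an optical density of 0.9 for 10 h. Each group had 2 pools, called A and B here, each made of RNA from 3 wells, and both groups shared the line and the culture time. Pools carried Cy5 and each was hybridised on its own slide against a reference carrying Cy3, which the methods describe as equal RNA of all wells, although the labels name that channel as a control or MB452 reference. Nothing in the sources used here says whether wells came from separate passages, so p-values measure only the spread between these pools. Values are log2 ratios to the reference, 0 being the median feature of a scan, and ratios give no expression level of a gene. The log base was not stated and was read as 2.

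Each slide was scanned at a high and a low photomultiplier voltage, and 1201 to 1534 features of each high scan, but 310 to 397 of each low scan, held 1 repeated value that was taken as the mark of saturated spots. Features with that value in the high scan of any slide therefore took the low scan on all slides, and the others took the mean of both scans. A gene passed the threshold when its fold change was over 1.2 and its unadjusted p in limma was under 0.05, the threshold the study used. The markers of epithelium and enterocytes, of which 7 of 9 were measured, had mean log2 ratios of -0.07, 0.04, -0.10 and -0.04 in control pools A and B and MB452 pools A and B. The 6 markers of leukocytes, fibroblasts and endothelium had means of -0.00093, -0.02, -0.04 and -0.06. None of either list passed the threshold, and since ratios give no level, whether any of these genes was at 0 could not be read.

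The proteasome core particle, called 20S, is a barrel of outer alpha rings, which form the gate, and inner beta rings, which hold the proteolytic sites. The 19S regulatory particle caps the barrel, binds ubiquitin chains, removes them and unfolds the substrate through its ring of ATPases. Interferon exchanges the catalytic beta subunits for inducible ones, giving the immunoproteasome, and induces the activator that PSME1 and PSME2 encode. In intestinal epithelium the complex turns over short-lived regulators and supplies peptides for antigen presentation.

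Most proteasome genes had lower ratios in the MB452 pools, by small amounts. The log2 fold change, MB452 minus control, was negative for 33 of 38 members and ran from -0.26 to 0.06, with a median of -0.14, where the median over all genes was -0.0086 and 54.3% of genes were negative. In 27 of 38 members both MB452 pools lay below both control pools, an order seen in 19.5% of all genes. In 1 member, PSMB8, both lay above, as they did in 3197 of 17910 genes, though its groups overlapped in each scan alone. Averaged over the 38 genes, control pools A and B stood at 0.16 and 0.09, MB452 pools A and B at 0.03 and -0.03. The lowest control mean thus lay above the highest MB452 mean, and the distance between pools of a group was about as wide as the gap between the groups. In bulk RNA, fewer cells with these transcripts and less of the transcripts per cell cannot be told apart.

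Single genes mostly stayed short of the threshold. Only PSME2 passed it among members, lower, where 1.02% of all genes did so, and no member passed it higher, where 1.09% of all genes did. At an unadjusted p under 0.05 in limma with no fold limit, 12 members were lower and 0 higher, the 12 being PSMA3, PSMA6, PSMB1, PSMB4, PSMB9, PSMB10, PSMC3, PSMC4, PSMD2, PSMD6, PSMD10 and PSME2. No gene of the array reached an adjusted p under 0.05 in limma (657 genes were lower and 575 higher at an unadjusted p under 0.05), the lowest adjusted p over all genes being 0.164 and the lowest among members 0.598, that of PSMC3. At the level of single features 2 of 58 passed lower, those of PSME2 and 1 of the features of PSMA4, against 0.935% of all features.

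**Figure D1:**
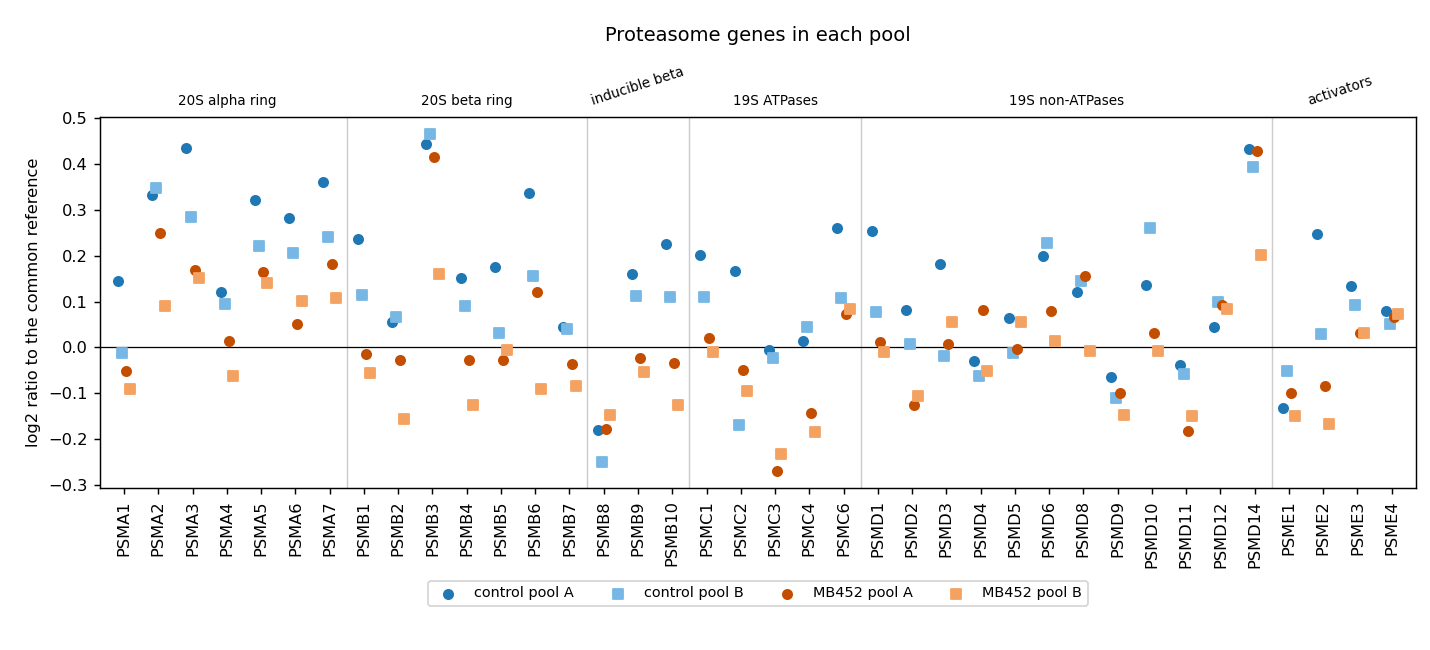
Log2 ratio to the common reference (vertical axis) of each of the 38 measured proteasome genes (horizontal axis, grouped by subcomplex) in control pools A and B (blue) and MB452 pools A and B (orange), 1 point per pool. In the mean of the scans, which is plotted, both orange points lie below both blue points in all 14 constitutive genes of the 20S core and in 5 of the 12 19S non-ATPase genes. These counts are 7 and 5 in high scans and 13 and 10 in low scans. Of all genes, 19.5% have this order in the mean of the scans, 19.3% in high scans and 20.3% in low scans.

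All 14 genes of the constitutive 20S core, 7 alpha and 7 beta, had both MB452 pools below both control pools in the mean of the scans, an order of 19.5% of all genes, and their median log2 fold change was -0.16. This count rested on the scan, with 7 of 14 so ordered in high scans, where 19.3% of all genes were, and 13 of 14 in low scans, where 20.3% were. Among the 7 were PSMB1 and PSMB4, each with a feature that held the repeated value in high scans. PSMA7 had this order in neither scan alone, and of the 7 alpha ring genes 2 had it in high scans. The mean over these 14 genes was 0.25 and 0.17 in the control pools and 0.08 and 0.0057 in the MB452 pools. None of the 14 passed the threshold, and 4 were lower at an unadjusted p under 0.05 in limma, where 657 of 17910 genes were. High scans gave 1 of 14, where 463 of 17967 genes were lower, and low scans 8 of 14, where 730 of 17940 were.

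The 7 alpha ring genes had log2 fold changes between -0.20 and -0.12. PSMA3, the lowest of them, stood at 0.43 and 0.28 in the control pools and at 0.17 and 0.15 in the MB452 pools. Its groups did not overlap, and its log2 fold change was -0.20 (standard error, SE, 0.071, adjusted p = 0.694 in limma). PSMA5, the least changed of the ring, stood at 0.32 and 0.22 in the control pools and at 0.16 and 0.14 in the MB452 pools, a log2 fold change of -0.12 (SE 0.063, adjusted p = 0.789 in limma). Both genes were thus ordered alike, with control pool A highest. PSMA1 stood at 0.14 and -0.01 against -0.05 and -0.09, PSMA6 at 0.28 and 0.21 against 0.05 and 0.10. PSMA7 stood at 0.36 and 0.24 against 0.18 and 0.11. PSMA2 differed in that control pool B was its highest pool, at 0.33 and 0.35 in the control pools against 0.25 and 0.09 in the MB452 pools.

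PSMA4, an alpha subunit whose tail takes part in the gate in yeast, was measured by 2 features that differed. One feature stood at log2 fold change -0.26 (SE 0.078, adjusted p = 0.797 over all features in limma) and passed the threshold. The other stood at -0.00069 (SE 0.060, adjusted p = 0.999). The gene mean of 0.12 and 0.10 in the control pools and 0.01 and -0.06 in the MB452 pools joins these unlike readings, and the gene's log2 fold change was -0.13 (SE 0.059, adjusted p = 0.751 over all genes).

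The 7 constitutive beta ring genes had log2 fold changes between -0.23 and -0.10. PSMB6, which carries the caspase-like site, was the lowest at 0.34 and 0.16 in the control pools and 0.12 and -0.09 in the MB452 pools. These groups did not overlap, but the pools of each group lay far apart, and the log2 fold change of -0.23 had an SE of 0.10 (adjusted p = 0.749 in limma). PSMB5, with the chymotrypsin-like site, stood at 0.18 and 0.03 against -0.03 and -0.0065, a log2 fold change of -0.12 (SE 0.070, adjusted p = 0.791). PSMB7, with the trypsin-like site, stood at 0.04 and 0.04 against -0.04 and -0.08, a log2 fold change of -0.10 (SE 0.056, adjusted p = 0.790). None of the constitutive catalytic genes passed the test, though all had the same order of groups.

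PSMB7 also rested on 2 features that differed, at log2 fold changes of -0.21 (SE 0.067, adjusted p = 0.816 over all features in limma) and 0.01 (SE 0.065, adjusted p = 0.985). PSMB1, a structural beta subunit, stood at 0.24 and 0.11 in the control pools and -0.02 and -0.05 in the MB452 pools, a log2 fold change of -0.21 (SE 0.067, adjusted p = 0.673). Its features were alike, at -0.23 and -0.20. The first of them held the repeated value in the high scan of all 4 slides, so that its value came from the low scan. Of the other structural subunits, PSMB4 stood at 0.15 and 0.09 against -0.03 and -0.13, and its only feature was also read from the low scan. PSMB2 stood at 0.06 and 0.07 against -0.03 and -0.16. PSMB3 had the highest ratios of the ring, at 0.44 and 0.46 against 0.41 and 0.16, so that MB452 pool A was close to the controls and MB452 pool B was not. Over the members, 15 had more than 1 feature, and in 10 of these all features were negative while in 5 the signs differed.

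The inducible subunits did not share 1 order of pools. PSMB10, which takes the place of PSMB7, stood at 0.23 and 0.11 in the control pools and at -0.03 and -0.13 in the MB452 pools, 1.19-fold lower. Its log2 fold change of -0.25 (SE 0.071, adjusted p = 0.642 in limma) was just short of the fold minimum. PSMB9, which takes the place of PSMB6, stood at 0.16 and 0.11 against -0.02 and -0.05, a log2 fold change of -0.17 (SE 0.057, adjusted p = 0.676). In both genes the groups were separate, with pools of a group closer together than the groups.

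PSMB8, which takes the place of PSMB5, was the exception. It stood at -0.18 and -0.25 in the control pools and at -0.18 and -0.15 in the MB452 pools. In this mean of the scans the MB452 pools lay above the controls, though control pool A and MB452 pool A were nearly level. In each scan alone its groups overlapped. The log2 fold change of 0.05 (SE 0.059, adjusted p = 0.860 in limma) was within the spread between pools. Its log2 fold change was -6.88e-05 in the low scan. PSMB8 and PSMB9 both lie in the major histocompatibility complex on chromosome 6, 9512 bases apart in GRCh38.p14.

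PSME2 encodes the beta subunit of the PA28 activator, a ring that opens the 20S gate without ubiquitin or ATP. It stood at 0.25 and 0.03 in control pools A and B and at -0.08 and -0.17 in MB452 pools A and B. The groups did not overlap, and control pool B lay nearer to MB452 pool A than to control pool A. PSME2 fell by 0.264 on the log2 scale (SE 0.090, adjusted p = 0.689 in limma), just past the fold minimum of 0.263 on that scale. Its only feature fell by 0.32 in the low scan (adjusted p = 0.721) and stood at -0.21 in the high scan (adjusted p = 0.843), where control pool B at -0.11 lay below MB452 pool B at -0.09. Without control pool A its log2 fold change was -0.16 and without MB452 pool A or B it was -0.30 or -0.22, and in none of these did it pass. Without control pool B it passed at -0.37.

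PSME1, the alpha subunit of the same ring, was not lower to a similar degree. Its pools stood at -0.13 and -0.05 for the controls and at -0.10 and -0.15 for MB452, so that the groups overlapped, and its log2 fold change was -0.03 (SE 0.061, adjusted p = 0.921 in limma). One of its 2 features held the repeated value in the high scan of all 4 slides and gave -0.08 in the low scan, the other gave 0.02. The difference between PSME1 and PSME2 was not tested. Both genes lie on chromosome 14, 4402 bases apart in GRCh38.p14. PSME3, which encodes a nuclear activator ring, had 4 features between -0.18 and -0.01 and a gene value of -0.08 (SE 0.056, adjusted p = 0.801). PSME4, which encodes the large single-chain activator PA200, stood at 0.08 and 0.05 in the control pools and at 0.07 and 0.07 in the MB452 pools, a log2 fold change of 0.0037 (SE 0.055, adjusted p = 0.994).

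The stretches before the starts of the activator pair and of both lower inducible genes are shown for the letters they share and do not share. They are taken from RefSeq on GRCh38.p14, the 250 bases before the start on the strand of the gene, with matches to TGACNNNGC, the core of the antioxidant response element that NFE2L1 and NFE2L2 bind, and to GAAANNGAA, the paired core read by interferon regulatory factors, in capitals on either strand. They lie at chr14:24146611-24146860 (PSME2, minus strand), chr14:24135944-24136193 (PSME1, plus strand), chr6:32853942-32854191 (PSMB9, plus strand) and chr16:67936851-67937100 (PSMB10, minus strand).
PSME2: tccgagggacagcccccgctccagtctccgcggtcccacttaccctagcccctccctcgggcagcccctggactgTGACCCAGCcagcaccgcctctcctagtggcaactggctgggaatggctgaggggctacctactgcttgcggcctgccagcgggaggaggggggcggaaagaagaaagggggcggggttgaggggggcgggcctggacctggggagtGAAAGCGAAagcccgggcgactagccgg
PSME1: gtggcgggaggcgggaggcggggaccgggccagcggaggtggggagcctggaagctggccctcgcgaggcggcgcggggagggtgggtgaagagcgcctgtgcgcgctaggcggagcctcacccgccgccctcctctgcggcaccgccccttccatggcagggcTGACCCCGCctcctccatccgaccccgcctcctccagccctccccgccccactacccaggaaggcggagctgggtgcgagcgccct
PSMB9: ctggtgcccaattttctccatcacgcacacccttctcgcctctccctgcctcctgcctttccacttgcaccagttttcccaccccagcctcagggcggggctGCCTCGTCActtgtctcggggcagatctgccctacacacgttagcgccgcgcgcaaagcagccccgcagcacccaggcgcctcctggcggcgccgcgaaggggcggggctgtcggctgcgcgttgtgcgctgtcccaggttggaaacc
PSMB10: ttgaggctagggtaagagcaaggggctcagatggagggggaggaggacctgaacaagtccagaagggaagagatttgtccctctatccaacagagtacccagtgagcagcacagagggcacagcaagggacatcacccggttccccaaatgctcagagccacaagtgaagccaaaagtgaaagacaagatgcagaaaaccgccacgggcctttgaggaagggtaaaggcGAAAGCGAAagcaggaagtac
PSME2 and PSMB10, the members with the lowest fold changes, each held GAAAGCGAA close to the start, and PSME2 also held TGACCCAGC farther away. PSMC3, the next lowest at -0.24, had no match to GAAANNGAA in its window. PSME1 held TGACCCCGC, and PSMB9 held the reverse complement form GCCTCGTCA. A match is a description of these letters and not a binding site.

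Of the 41 members, 36 had a promoter window in the RefSeq table. GAAANNGAA, searched on both strands, was in 4 of these 36 (11.1%), against 8.41% of all genes in that table. The 4 were PSMA4, PSMB4, PSMB10 and PSME2, all 4 with both MB452 pools below both control pools, as were 19 of the 29 measured members without the motif and 19.5% of all genes. Their median log2 fold change was -0.22, against -0.12 in those 29. TGACNNNGC was in 11 of 36 (30.6%), against 13.2% of all genes. The 10 measured members that held it had a median log2 fold change of -0.04, against -0.15 for the 23 without it. Both MB452 pools lay below both control pools in 4 of these 10 and in 19 of these 23, against 19.5% of all genes. This is a description over few genes, with no test.

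A further 4 motifs were searched. CCAAT was in 47.2% of member windows and 37.0% of all genes, with a median log2 fold change of -0.13 in the 15 measured members that held it and -0.14 in the 18 that did not. GGGCGG, the GC box, was in 63.9% of member windows and 46.2% of all genes, with medians of -0.14 and -0.12. TTCNNNGAA, the gamma-interferon activated site, was in 16.7% and 8.09%, with medians of -0.10 and -0.15. CCGGAAG, the ETS core, was in 22.2% and 10.2%, with medians of -0.06 in the 7 members that held it and -0.16 in the 26 that did not. Members with both MB452 pools below both control pools were 11 of 15 with CCAAT and 12 of 18 without, against 19.5% of all genes. For GGGCGG they were 15 of 20 and 8 of 13, for TTCNNNGAA 4 of 6 and 19 of 27. For CCGGAAG they were 2 of 7 and 21 of 26. The motifs overlap in part and were all searched on both strands.

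The 19S regulatory particle held genes of both signs. Its genes were counted by symbol, so that the assembly chaperones PSMD5, PSMD9 and PSMD10 were included. Of the 17 measured genes, 14 were negative, with a median log2 fold change of -0.11. In 9 both MB452 pools lay below both control pools, which became 7 in high scans and 13 in low scans. Over all genes, 19.5% had this order in the mean of the scans, 19.3% in high scans and 20.3% in low scans. Its ATPases unfold the substrate. All 5 measured ATPase genes were negative, with a median of -0.15. Against the same shares of all genes, 4 had separate groups, 2 in high scans and 3 in low scans.

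PSMC3, an ATPase, had the smallest p of any member. It stood at -0.0045 and -0.02 in the control pools and at -0.27 and -0.23 in the MB452 pools, so that the groups were far apart against the SDs of 0.013 and 0.025 (n = 2 each). Its log2 fold change was -0.24 (SE 0.056, adjusted p = 0.598 in limma), 1.18-fold lower and thus short of the fold minimum, and both scans gave the same size, -0.23 and -0.24. PSMC4, another ATPase of the ring, stood at 0.01 and 0.04 against -0.14 and -0.18, a log2 fold change of -0.19 (SE 0.056, adjusted p = 0.651). PSMC2 was the least changed ATPase, at 0.17 and -0.17 in the control pools and -0.05 and -0.09 in the MB452 pools. Its control pools lay on both sides of the MB452 pools, and its log2 fold change of -0.07 had an SE of 0.12 (adjusted p = 0.904). PSMC1 and PSMC6, the remaining ATPases, had separate groups in the mean of the scans, over 3 and 4 features. PSMC1 stood at 0.20 and 0.11 against 0.02 and -0.0093, its features lying between -0.16 and -0.14, and its groups overlapped in high scans. PSMC6 stood at 0.26 and 0.11 against 0.07 and 0.08, its features lying between -0.16 and -0.02, and its groups overlapped in each scan alone.

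**Figure D2:**
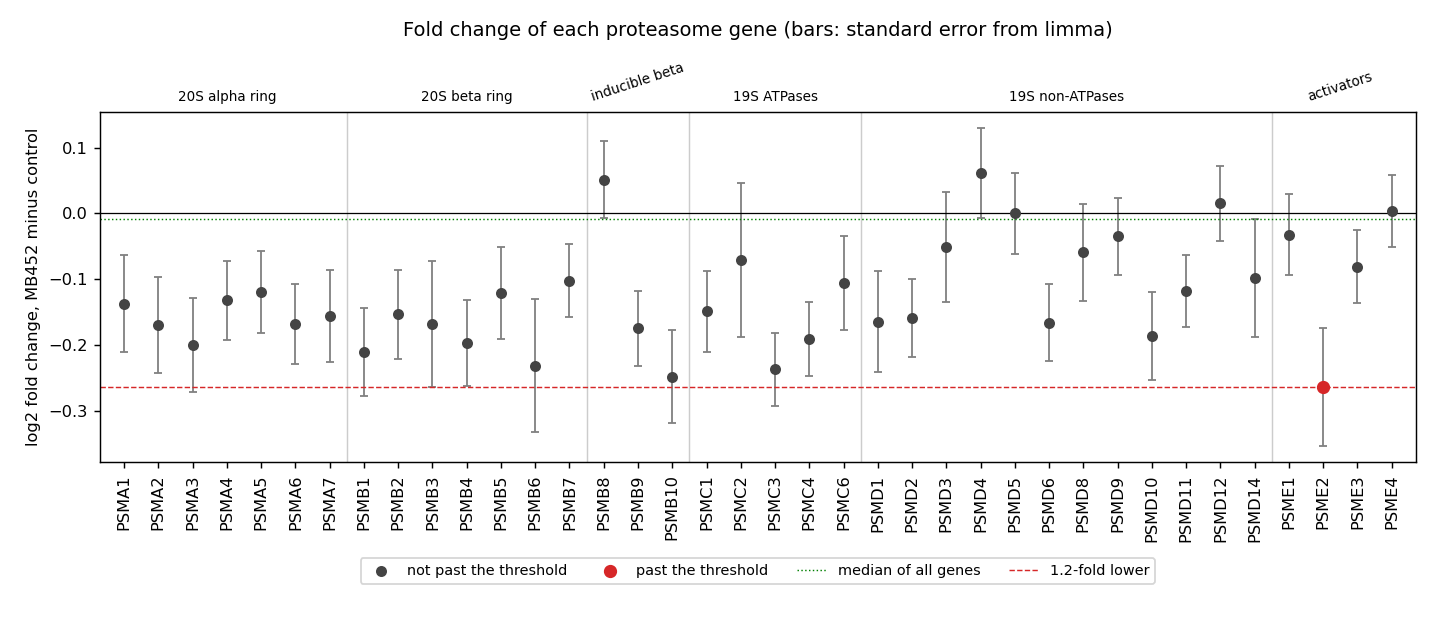
Log2 fold change of each proteasome gene, MB452 minus control (vertical axis), with its standard error from limma as bars, grouped by subcomplex on the horizontal axis. The dashed line marks a 1.2-fold lower ratio, which only PSME2 passes (red), the dotted line the median of all genes at -0.0086, and 33 of 38 points lie below 0.

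The 12 measured non-ATPase genes of the regulatory particle had a median log2 fold change of -0.08, and in 5 both MB452 pools lay below both control pools, against 19.5% of all genes. Low scans gave 10 of 12 with this order, against 20.3% of all genes, and a median of -0.12. High scans gave 5 of 12, against 19.3% of all genes, and a median of -0.04. The 6 lid genes had a median of -0.08, the 3 base genes of -0.16 and the 3 genes of assembly chaperones of -0.03. PSMD10, or gankyrin, a chaperone that holds the ATPase PSMC4 during assembly, was the lowest. It stood at 0.14 and 0.26 in the control pools and at 0.03 and -0.0069 in the MB452 pools, a log2 fold change of -0.19 (SE 0.067, adjusted p = 0.702 in limma). PSMD5, another base chaperone, had overlapping groups, at 0.06 and -0.01 in the control pools and -0.0030 and 0.05 in the MB452 pools. PSMD9, also a base chaperone, had overlapping groups too, at -0.07 and -0.11 against -0.10 and -0.15.

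Among lid genes, PSMD6 was the lowest, at 0.20 and 0.23 in the control pools against 0.08 and 0.01 in the MB452 pools, a log2 fold change of -0.17 (SE 0.058, adjusted p = 0.694 in limma). PSMD12, a structural lid subunit, stood at 0.04 and 0.10 against 0.09 and 0.08, with overlapping groups and a log2 fold change of 0.02 (SE 0.057, adjusted p = 0.968). Among base genes, PSMD1, a scaffold of the base, was the lowest, with 0.25 and 0.08 against 0.01 and -0.01 and a log2 fold change of -0.16 (SE 0.077, adjusted p = 0.764). PSMD2, the other scaffold, stood at 0.08 and 0.0068 against -0.12 and -0.11, with separate groups. PSMD11, a lid subunit, stood at -0.04 and -0.06 against -0.18 and -0.15, also separate. PSMD3 and PSMD8, both of the lid, overlapped, PSMD3 at 0.18 and -0.02 against 0.0069 and 0.06 and PSMD8 at 0.12 and 0.14 against 0.16 and -0.0078. PSMD4, a ubiquitin receptor of the base, was the highest of all members. It stood at -0.03 and -0.06 in the control pools and at 0.08 and -0.05 in the MB452 pools, and its log2 fold change was 0.06 (SE 0.068, adjusted p = 0.857).

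The fold changes depended on which scan was read. In the high scan alone no member passed the threshold, where 0.991% of all genes passed lower, and 17 of 38 members had both MB452 pools below both control pools, where 19.3% of all genes did. In the low scan alone PSMB6, PSMB10 and PSME2 passed, where 1.33% of all genes passed lower, and 31 of 38 had that order, where 20.3% of all genes did. The 17 members with this order in the high scan all had it in the low scan. Values from high scans alone, here and elsewhere, keep the features with the repeated value, 4 of them features of members. The only feature of PSMB4 held it on 2 slides, those of control pool B and MB452 pool B. Its order in the high scan thus rests partly on that value. The median log2 fold change of members was -0.10 from high scans and -0.15 from low scans, and 25 of 38 members had the more negative value in the low scan. Over the 38 members, which share slides and reference, the fold changes of the scans correlated at r = 0.54.

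PSMB6 shows the difference between the scans. In the high scan it stood at 0.53 and 0.31 in the control pools and at 0.43 and 0.09 in the MB452 pools, so that the groups overlapped. The low scan gave 0.15 and -0.00091 against -0.19 and -0.27, a log2 fold change of -0.30 (SE 0.079, adjusted p = 0.721 in limma). PSMD14, the deubiquitinase of the lid, stood at 0.60 and 0.51 against 0.73 and 0.32 in the high scan, with MB452 pool A the highest of all. The low scan gave 0.26 and 0.27 against 0.13 and 0.08, with separate groups. PSMD4 turned from 0.17 in the high to -0.04 in the low scan and PSMD12 from 0.10 to -0.07.

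The scans read many proteasome features differently. In 16 of 58 (27.6%) the high scan exceeded the low scan by over 0.2 on average over the slides, against 4.79% of all features. Read in the low scan, these 16 features all had negative fold changes, with a median of -0.15, whereas of all features with such a gap 50.8% were negative, with a median of -0.0033. The 4 member features with the repeated value in the high scan, of PSMA6, PSMB1, PSMB4 and PSME1, were also all negative in the low scan, with a median of -0.18, where 66.5% of all such features were negative, with a median of -0.06. The remaining 38 member features, with a mean gap between the scans of at most 0.2, had a median of -0.12 in low scans and -0.10 in high scans. Fold changes of single features among them still differed by scan, as for 1 feature of PSMB7 at -0.10 in the high and -0.33 in the low scan, and 1 of PSMD12 at 0.14 and -0.06. The part of saturation in the size of the fold changes was not tested further.

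**Figure D3:**
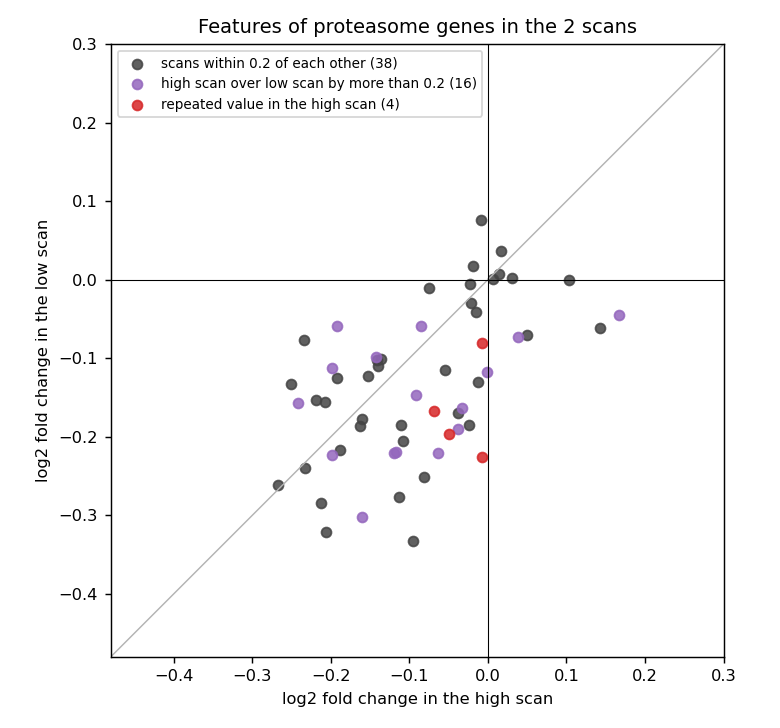
Log2 fold change, MB452 minus control, of each of the 58 proteasome features, from high scans on the horizontal axis and from low scans on the vertical axis, with the line of equal values in grey. The 16 features with the high scan over the low scan by more than 0.2 (purple) and the 4 with the repeated value in the high scan (red) all lie below 0 on the vertical axis.

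Control pool A was above the other pools for most members. It was the highest of the 4 pools in 27 of 38 members, where 24.1% of all genes had it highest, and MB452 pool B was the lowest in 25 of 38, where 27.3% of all genes had it lowest. From low scans, control pool A was the highest in 24 members and control pool B in 12. Without control pool A no member passed the threshold, where 1361 of 17910 genes passed lower, and the median log2 fold change of members was -0.10. Without control pool B 5 members passed, PSMA3, PSMB1, PSMB6, PSMB10 and PSME2, with a median of -0.17, where 344 of 17910 genes passed lower. Without MB452 pool A 3 members passed, PSMB3, PSMB6 and PSMB10, where 260 genes did, and without MB452 pool B none did, where 149 genes did.

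**Figure D4:**
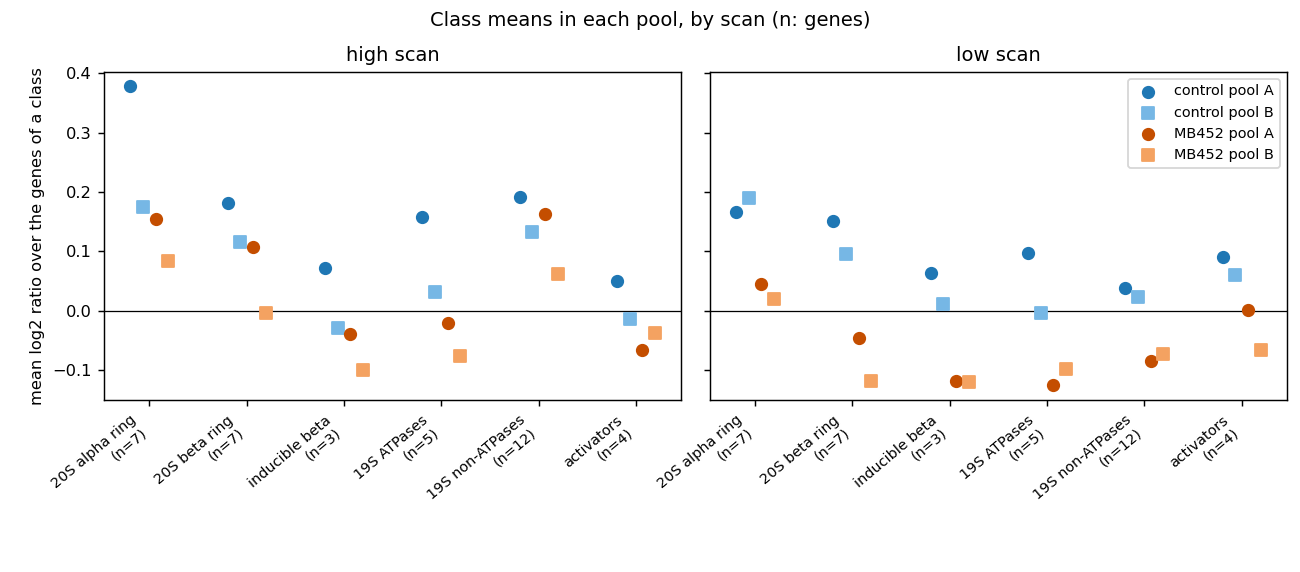
Mean log2 ratio to the reference (vertical axis) over the genes of each subcomplex (horizontal axis, n genes each), with high scans left and low scans right, 1 point per pool, blue for control and orange for MB452. In the low scan both orange points lie below both blue points in every subcomplex, while in the high scan MB452 pool A lies above control pool B for the 19S non-ATPases.

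The study singled out 7 proteasome genes on these same slides, so their direction is not independent evidence. It tested single spots and reported all 7 as lower, whereas the values here are means over the features of a gene. The scans were also joined differently. The study kept high scan values except near saturation, where rescaled low scan values took their place, while most values here are means of both scans. The part of either difference in the results was not tested. Of the 6 measured here, PSMA4, PSMB1, PSMB6, PSMB7, PSMD12 and PSME2, 5 had both MB452 pools below both control pools, against 19.5% of all genes, and 1 passed the threshold, with a median log2 fold change of -0.17. PSMD12 stood at 0.02 here, unlike in the study, with its features at -0.01 and 0.04. PSMA4 passed at 1 of its 2 features but not as a gene, and PSMB6, with 1 feature, did not pass. The other 32 members had a median of -0.14, with 22 so ordered and none past the threshold. High scans gave 3 of 6 and 14 of 32 with this order, against 19.3% of all genes, both with a median of -0.10. Low scans gave 6 of 6 and 25 of 32, against 20.3% of all genes, with medians of -0.21 and -0.14. In low scans 2 of the 6 and 1 of the 32 passed the threshold lower, where 1.33% of all genes did.

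Factors that build or bind the proteasome were listed apart from the 41 members, and some of those bound to it, such as SEM1, are subunits themselves. All 5 measured assembly factors of 6 listed were negative, with a median log2 fold change of -0.10, and none passed the threshold. This median was -0.17 in low scans and -0.03 in high scans, where PSMG2, another alpha ring chaperone, was at 0.0037. PSMG1, a chaperone of alpha ring assembly, stood at 0.23 and 0.18 in the control pools and -0.01 and -0.04 in the MB452 pools, a log2 fold change of -0.23 (SE 0.057, adjusted p = 0.598 in limma). Of the proteasome-bound factors 9 of 10 were measured, 7 of them negative, with a median of -0.07, in low scans -0.07 and in high scans -0.03, and none passed. The lowest was SEM1, a small lid subunit, at -0.23 (SE 0.060, adjusted p = 0.624). This value of SEM1 was that of the low scan, the reading taken where the high scan holds the repeated value. The high scan, with such values kept, gave -0.03.

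Genes upstream of the proteasome were listed too. Of the substrate delivery genes 11 of 12 were measured, with a median log2 fold change of -0.01. Of these 1 passed lower and none higher, where 1.02% of all genes passed lower and 1.09% higher. The gene that passed was UFD1, a cofactor of the segregase VCP. It stood at 0.58 and 0.38 in the control pools and 0.10 and -0.08 in the MB452 pools and fell by 0.47 on the log2 scale (SE 0.097, adjusted p = 0.598 in limma). UBQLN2, a shuttle that carries ubiquitinated proteins, was the highest of that list at 0.19 (SE 0.059, adjusted p = 0.672). Ubiquitin and its activating and conjugating enzymes had 6 of 12 measured, a median of -0.0096 and none past the threshold, from UBE2N at -0.16 to CDC34 at 0.14.

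Of the genes in the transcription of proteasome genes 10 of 11 were measured, with a median log2 fold change of 0.02. Of these 1 passed higher and none lower, where 1.09% of all genes passed higher and 1.02% lower. MAFG, a small Maf partner of NFE2L1 and NFE2L2, passed the threshold higher, at -0.23 and -0.35 in the control pools and -0.13 and 0.28 in the MB452 pools, a log2 fold change of 0.36 (SE 0.14, adjusted p = 0.719 in limma), with the MB452 pools far apart. NFE2L2 stood at 0.17 (adjusted p = 0.716) and passed higher in the low scan at 0.37, where 152 of 17940 genes did, while the high scan gave -0.02. Target genes of NFE2L2 other than subunits, 7 of 8 measured, had a median of 0.01, 0.13 in low scans and 0.0056 in high scans, and none passed, from GCLC at -0.01 to SRXN1 at 0.23. Genes of interferon response and antigen processing, 12 of 14 measured, had a median of -0.03 and none passed, from HLA-B at -0.12 to TAP1 at 0.09.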

How the data were processed

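RNA of 2 control and 2 MB452 pools was measured on a 2-colour Agilent whole human genome array. Per the labels and methods, the authors quantified scans in GenePix without background correction, removed poor and control spots and loess-normalized each array in limma (version not given). What they deposited are log2 ratios (Cy5, the pool, over Cy3, the reference) in 8 columns, 1 for each of 2 scans of 4 slides, and 0 were left unused. The log base was not stated and is read as 2. Intensities were not used, so depth is given only by the number of arrays.

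Analysis used R 4.3.3 and limma 3.58.1. After median centring of each column, features holding the repeated value in the low scan of any slide (411) had no value, and features with values on all 4 slides were averaged per gene (avereps) and fitted with lmFit and eBayes, with no covariate. Adjusted p-values are Benjamini-Hochberg over all genes or features. Genes were named through the platform annotation: 29033 features had 1 symbol, 97 several and 15160 none, and 28992 were matched to RefSeq.

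Members and lists were chosen with earlier results of these data known. Named are members past the threshold for gene or feature, those the study singled out, the inducible subunits with their counterparts, and the extremes of each class and list. The remaining members and NFE2L2 were named after their values were seen. On 41731 simulated features, 140 of 200 changed by 1.25-fold passed, 194 by 1.5-fold and 198 by 2-fold. Alternatives covered scans, centring, quantile scaling, missing values, variance model, fold minimum, pool letter as a block, slide as a random block, choice of feature and each pool left out.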

Additional observations from a re-analysis of the deposited data

How the results depend on the processing

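The count of members past the threshold was 1 as reported and also with the mean of both scans for every feature, with a value required in all 8 columns and with a trended robust variance. It was 0 with the high scan only, 3 with the low scan only, 0 with no median centring, 2 with quantile normalization (PSMB10 and PSME2), 2 with the feature of largest spread for each gene (PSMA4 and PSME2), 12 with no fold minimum, 0 at a fold change over 1.5, 0 with the slide as a random block over separate scans, 0 to 5 with each pool left out, and 2 (PSMB6 and PSME2) where the low scan replaced the mean for features whose scans differ, a setting chosen after seeing the data. Over all genes, the counts lower and higher were 183 and 195 as reported, 178 and 314 with the high scan, 239 and 152 with the low scan, 247 and 163 with the random block, 243 and 376 with the feature of largest spread, 207 and 289 with quantile normalization, and 1361 and 372 without control pool A. Fits without 1 pool assume that the lone pool varies like the others.

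The median log2 fold change of members was -0.10 in the high scan, and between -0.17 and -0.10 with a pool left out. Of the 38 members, 28 were negative in all 17 settings counted. Direction turned in 10. PSMB8 stood at -6.88e-05 in the low scan, PSMD4 at -0.045 in the low scan and at -0.045 where the low scan replaced the mean, PSMD5 at -0.0025 in the high scan and -0.0026 with quantile normalization, PSMD12 at -0.066 in the low scan and PSME1 at 0.012 in the high scan. With a pool left out, PSMC2 ran from -0.24 to 0.10, PSMD3 from -0.15 to 0.0505, PSMD4 from -0.0050 to 0.13, PSMD5 from -0.0382 to 0.0388, PSMD8 from -0.14 to 0.0224, PSMD12 from -0.0116 to 0.0426, PSMD14 from -0.21 to 0.0154, PSME1 from -0.0723 to 0.0076 and PSME4 from -0.0104 to 0.0177. The cause was not tested.

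With the pool letter as a replicate block, 1 member passed, PSME2, and the median was -0.14. The letters share only a name: the differences between pools A and B of the groups correlated at -0.032 over genes. With 2 pools a group, changes near 1.2-fold lie at the limit of what these slides resolve.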
